A study of Mus musculus with 11 samples.

Results

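Transcript levels in the newborn wild-type mouse ovary were described from the 4 arrays whose titles name them as wild type, out of 11 arrays in the series. The members were chosen by title and genotype label alone, and the knockout arrays entered only the shared normalization. The wild-type ovaries came from newborn mice of a C57BL/6/129S6/SvEv background with no other allele or agent in the labels, which do not say whether a sample was 1 animal or a pool. The remaining arrays of the series, 4 from Sohlh1 KO and 3 from Sohlh2 KO newborn ovaries, are not compared here. Each sample's total RNA had been turned into biotin-labelled cRNA for 1 array of an Illumina MouseWG-6 v2 BeadChip. Nothing in the labels tells whether the replicates came from different animals, so p-values measure only the spread between these samples, and the spread between arrays may be partly technical.

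Around birth, germ cell cysts of the mouse ovary break down and single oocytes become enclosed by flattened pregranulosa cells as primordial follicles. Oocytes arrest in meiotic prophase at this stage and begin to store the products of zona pellucida and maternal-effect genes. Stroma, vessels, blood cells and the surface epithelium make up the rest of the organ, and oviduct, rete and fat lie next to it.

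All levels below are normalized log2 intensities of 1 probe per gene, the probe with the highest mean over the 4 arrays, and values of single arrays are given in the order wild type 1, 2, 3 and 4. Background was set on each array at the 95th percentile of the deposited intensity of 1276 probes for olfactory receptor genes, which few tissues express, and brighter probes are called above background. That level was an intensity of 149.3, 151.3, 151.2 and 153.5 on the 4 arrays, or 4.92, 4.98, 4.98 and 5.06 on the normalized log2 scale. A gene counted as above background when 1 of its probes was so on all 4 arrays. Percentiles place a gene's mean probe signal among all 19057 named genes. Brightness depends on each probe's own sequence, so a percentile describes probe signal and does not order transcript amounts between genes. In bulk RNA, fewer cells of a type and less RNA per cell cannot be told apart.

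The 4 arrays lay on 1 chip, and between 12418 and 13057 named genes were above background on each. Pairs of arrays correlated at r = 0.984 to 0.9922 across 11540 genes above background, with the 3 lowest values in pairs that held wild type 1. Wild type 1 stood apart from the other arrays: 110 genes (0.783% of 14046 genes above background on at least 1 array) were at least 2-fold higher there than the mean of the other 3 arrays and higher than each of them. On wild type 2, 3 and 4, 9 (0.0641%), 9 (0.0641%) and 24 (0.171%) genes were higher by the same measure. At least 2-fold lower were 26 genes (0.185%) on wild type 1, against 12 (0.0854%), 22 (0.157%) and 40 (0.285%) on wild type 2, 3 and 4. Of those lower on wild type 2, 3 and 4, 3, 9 and 26 were themselves among the 110 genes high on wild type 1, whose value raised the mean they were set against. Some of the 110 were above background on wild type 1 alone. Set against the background level, some of these were less than 2-fold higher, as Ifi211 (1.62-fold). Over the 11540 genes above background on all 4 arrays, 69 (0.598%) were at least 2-fold higher on wild type 1. On wild type 2, 3 and 4, 8 (0.0693%), 8 (0.0693%) and 16 (0.139%) of these genes were so. The genes high on wild type 1 included many of antigen presentation and interferon responses, which are described after the cell types of the ovary.

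**Figure D1:**
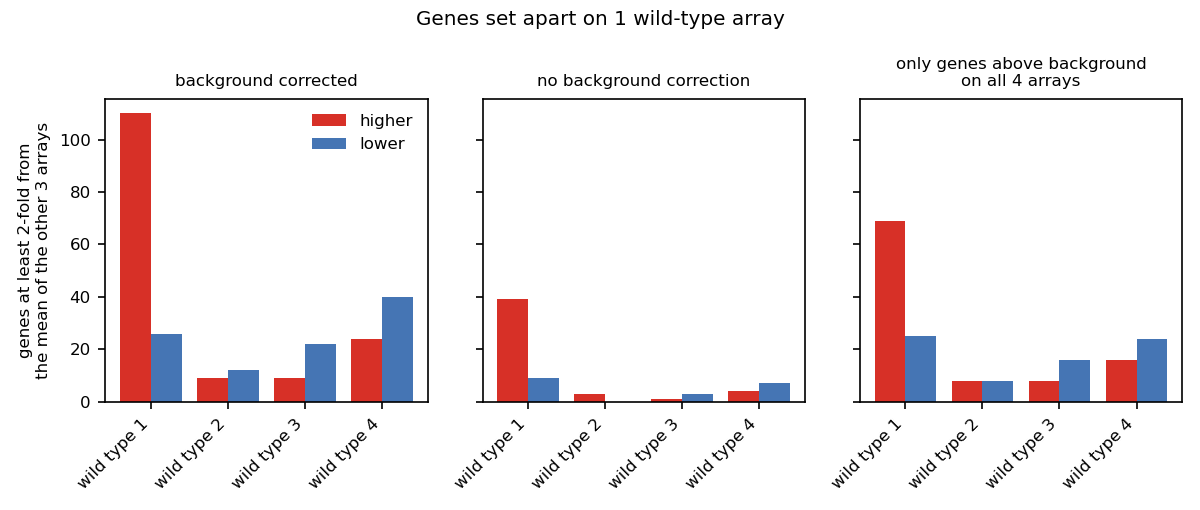
Number of genes at least 2-fold higher (red) or lower (blue) on 1 wild-type array than the mean of the other 3, for each array, with background correction (left), without it (middle) and over genes above background on all 4 arrays (right). Wild type 1 had 110 higher genes in the left panel, 39 in the middle and 69 on the right, the highest count of the 4 arrays in each panel.

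In all, 11546 of 19057 named genes (60.6%) were above background on all 4 wild-type arrays, and 4977 (26.1%) were so on 0 arrays. The remaining genes passed on 1 (1188 genes), 2 (681) or 3 (665) arrays. Of the olfactory receptor probes themselves, 9 of 1276 (0.71%) passed on all 4 arrays. Without the olfactory receptor genes the share was 64.1% (11537 of 17986). Among probes that carry no gene symbol, 2615 of 10378 (25.2%) passed, and these are not named here.

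Housekeeping genes gave the brightest probes. Among the 25 named genes with the highest mean signal, 15 encode ribosomal proteins, 2 are histones, 1 is mitochondrial and 7 belong to other groups. Rpl9 read 15.00, 15.00, 14.94 and 15.04, the elongation factor gene Eef1a1 14.75, 14.93, 14.91 and 14.85, and the peptidyl-prolyl isomerase gene Ppia 14.89, 14.76, 14.81 and 14.79. Acta2, which encodes smooth muscle actin and marks ovarian stroma and vessel walls, was among the 25 at 14.87, 14.80, 14.65 and 14.85. Its 4 values lay within 0.22 of each other, and the arrays did not separate. The 30 measured genes of the ribosomal protein list were all above background, with a median percentile of 99.8. Rpsa, Rpl14 and Rps20 of that list nevertheless sat at percentiles 44.7, 41.3 and 38.5, far below the other members. Within the 100 brightest genes, 3 were expressed in oocytes by their list: Padi6, Nlrp14 and Ooep.

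The gene lists were chosen with earlier results of these data known, so their shares describe the lists and do not test them. Of the 5 germ line lists, oocyte products had the highest share detected. Of 14 measured genes for zona pellucida and secreted or surface proteins, 13 (92.9%) were above background on all 4 arrays, against 60.6% of all named genes, and their median percentile was 88.3. All 3 zona pellucida genes passed. Zp3, which encodes the zona protein that forms filaments with ZP2, read 12.50, 12.45, 12.67 and 12.11. Zp1 read 10.47, 10.57, 10.59 and 10.33 and Zp2 6.51, 6.46, 6.34 and 6.18. Wild type 4 was the lowest array for all 3 genes, by less than 0.6 from the highest.

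The secreted growth factor genes of the oocyte were also bright. Gdf9, whose product acts on granulosa cells, stood at percentile 99.3 with 13.57, 13.56, 13.30 and 13.28. Its partner Bmp15 read 10.83, 10.98, 10.63 and 10.74. Ooep, a component of the subcortical maternal complex, had the highest percentile of the list (99.5) at 13.59, 13.81, 13.80 and 13.41. The 4 arrays overlapped closely for each of these genes (SD 0.15 to 0.19, n = 4). Izumo1r, which encodes the egg receptor for a sperm protein, was the 1 member not above background on every array, with 4.95, 5.44, 4.87 and 5.05.

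Maternal-effect and oocyte cytoplasm genes passed in 31 of 38 measured cases (81.6%), with a median percentile of 77.4, and 10 of them sat at the 90th percentile or higher. Padi6, needed for the cytoplasmic lattices of the egg, read 14.14, 13.78, 14.19 and 13.70. Nlrp14 read 14.23, 14.09, 13.66 and 13.70, and Nlrp5, another member of the subcortical maternal complex, 13.70, 13.31, 13.49 and 13.37. Tle6 averaged 12.82 ± 0.12 (SD, n = 4), Dppa3, which protects the maternal genome's methylation in the zygote, 11.69 ± 0.05 (SD, n = 4), and the DNA methyltransferase gene Dnmt1 11.19 ± 0.21 (SD, n = 4). Counts of the highest and lowest array are given over members whose shown probe was above background on all 4 arrays. On wild type 1, 15 of 31 such members had their highest value and 0 their lowest, against 28.6% of all such genes highest on that array. Wild type 3 and 4 held 16 and 12 of the lowest values, against 27.9% and 20.5% of all such genes. The median difference from the mean of the other 3 arrays was small, at 0.25, 0.19, -0.23 and -0.14 on the 4 arrays.

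Not every member of the oocyte gene families was detected. Of 17 measured Nlrp genes, 10 (58.8%) passed, close to the 60.6% of all named genes, and Nlrp2 (4.69, 4.53, 4.89 and 4.72) and Nlrp4b (4.48, 4.59, 4.58 and 4.92) were above background on 0 arrays. Of 8 Oas1 genes, 4 passed, with Oas1d at 12.19, 12.15, 12.15 and 11.80 and Oas1h at 4.42, 4.79, 4.65 and 4.38. Of 27 Pramel genes, 8 (29.6%) passed and 18 were at background on every array. Members of these families lie in clusters of near-identical copies, so a probe may read more than 1 of them. These family counts were made after the values had been seen.

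Transcription regulators of the oocyte passed in 11 of 15 cases (73.3%), with a median percentile of 61.4. Sohlh1 read 11.23, 11.13, 11.23 and 11.47, and Figla 8.72, 8.83, 8.98 and 9.50. Both encode basic helix-loop-helix proteins needed for primordial follicles, and wild type 4 was the highest array for each. The homeobox genes Lhx8 and Nobox averaged 7.58 ± 0.42 and 6.06 ± 0.13 (SD, n = 4 each). Sohlh2, which encodes the partner of SOHLH1, was faint at 4.99, 5.06, 4.83 and 5.17, above background on 3 arrays and below it on wild type 3. Obox6 was above background on 0 arrays.

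FIGLA is known to bind E-boxes in the promoters of zona pellucida genes, and Figla and Zp3 were both well above background on all 4 arrays. Their RefSeq promoter windows (GRCm38.p6, 250 bases before to 50 after the start of the gene) are shown because they hold these motifs. Capitals mark every match to the E-box CANNTG, which reads the same on both strands. The Zp3 window is chr5:135979855-135980154 (+ strand) and the Figla window is chr6:86016941-86017240 (+ strand).
Zp3: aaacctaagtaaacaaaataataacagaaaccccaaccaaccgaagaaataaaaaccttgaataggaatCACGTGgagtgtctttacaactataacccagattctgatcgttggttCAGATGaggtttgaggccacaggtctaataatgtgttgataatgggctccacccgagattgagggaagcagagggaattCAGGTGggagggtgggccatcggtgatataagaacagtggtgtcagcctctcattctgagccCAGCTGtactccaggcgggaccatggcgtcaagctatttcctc
Figla: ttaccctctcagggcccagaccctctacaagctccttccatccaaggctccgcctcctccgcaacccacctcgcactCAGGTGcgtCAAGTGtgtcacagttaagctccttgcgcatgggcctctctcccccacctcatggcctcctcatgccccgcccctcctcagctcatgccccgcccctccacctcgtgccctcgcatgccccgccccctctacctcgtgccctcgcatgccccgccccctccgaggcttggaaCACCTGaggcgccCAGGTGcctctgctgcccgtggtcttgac
Each window holds 4 matches. In Zp3 the match CACGTG begins 181 bases before the start site and CAGGTG 55 bases before it. At least 1 such match is found in 72.15% of the promoters of 27025 genes. Of 40 zona pellucida, secreted and maternal-effect genes with a promoter in the table (of 52), 38 (95%) hold 1. This is a description of letters in these windows and not of binding.

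Genes of meiotic prophase were detected at about the background share: 16 of 27 (59.3%) passed, against 60.6% of all named genes, and 8 were at background on every array. Their median percentile was 41.7. Psmc3ip, which encodes a cofactor of the meiotic recombinases, read 10.21, 10.65, 10.58 and 10.39, and the meiotic cohesin gene Smc1b 8.75, 8.54, 8.81 and 9.26. Syce1 and Syce2 of the central element of the synaptonemal complex averaged 8.33 ± 0.28 and 7.90 ± 0.22 (SD, n = 4 each). Stra8, which marks entry into meiosis, was at background with 4.50, 4.55, 4.37 and 4.40, as were the recombinase gene Dmc1 (4.72, 4.48, 4.34 and 4.43) and Sycp3 of the lateral element (4.52, 4.61, 4.48 and 4.42). A probe at background says only that no signal was seen by that probe, and each of these genes had 1.

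Germ cell identity and piRNA pathway genes passed in 20 of 32 cases (62.5%), again close to 60.6%, with a median percentile of 53.0. Dppa5a, a gene of pluripotent cells and early germ cells, read 12.26, 12.44, 12.39 and 12.17. The RNA-binding protein gene Dazl averaged 9.14 ± 0.20 and the germ cell helicase gene Ddx4 6.61 ± 0.31 (SD, n = 4 each). Gtsf1, of the piRNA pathway, read 10.12 on wild type 1 against 9.62, 9.58 and 9.59 on the other arrays. Mael, Nanos3, Prdm14 and Prdm1 were above background on 0 arrays.

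**Figure D2:**
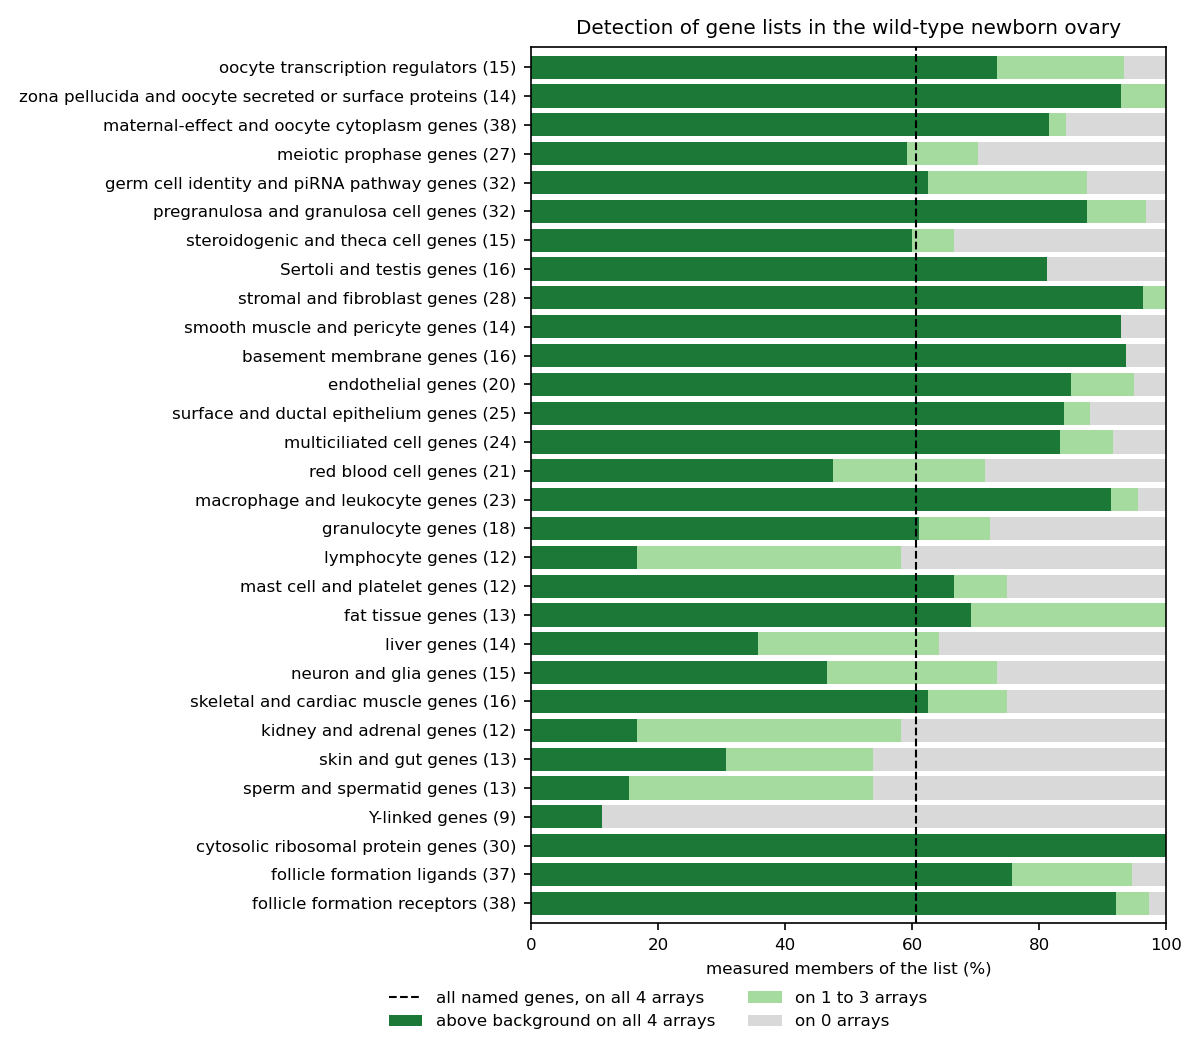
Share of measured members of 30 gene lists above background on all 4 wild-type arrays (dark green), on 1 to 3 arrays (light green) or on 0 arrays (grey), with the number of measured members in brackets; the dashed line is the share of all named genes on all 4 arrays (60.6%). Stromal, basement membrane, zona and receptor genes are among the lists over 90%, while lymphocyte, kidney, sperm and Y-linked genes lie under 20%.

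Pregranulosa and granulosa cell genes passed in 28 of 32 cases (87.5%), with a median percentile of 68.1. Gja1, the gap junction gene of granulosa cells that stroma also expresses, read 14.45, 14.25, 14.07 and 14.26. Among genes of hormone and growth factor signalling, Inha read 11.62, 11.71, 11.70 and 12.05, and the receptor gene Amhr2 11.55, 11.63, 11.64 and 11.50. The steroid dehydrogenase gene Hsd17b1 averaged 12.15 ± 0.24 (SD, n = 4). These 4 genes varied by less than 0.6 between arrays. Foxl2, the transcription factor that defines the pregranulosa cell, was faint but above background on all 4 arrays at 5.25, 5.27, 5.50 and 5.71, and Fst, which encodes the activin antagonist follistatin, read 9.28, 9.22, 9.12 and 9.46.

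Several granulosa genes usually described in growing follicles were also above background. Fshr, the receptor for follicle-stimulating hormone, read 9.14, 8.46, 8.66 and 8.72. Inhba, which encodes an activin subunit, read 9.11, 8.47, 8.72 and 10.01, with wild type 4 highest by 0.90. Amh, the anti-Müllerian hormone gene, was 7.50 on wild type 3 against 6.13, 6.62 and 5.99 on wild type 1, 2 and 4. Nr5a2, an orphan nuclear receptor of granulosa cells, was lowest on wild type 1 at 9.22, against 10.53, 10.23 and 10.89 on wild type 2, 3 and 4. Bmp2 was the 1 member at background on every array. Cyp19a1 and Wt1 of this list have no named probe among the values used and are not analysed here.

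Steroidogenic and theca cell genes were at the background share, with 9 of 15 above background against 60.6% of all named genes. Star, which encodes the cholesterol transporter that starts steroid synthesis, was at background with 4.65, 4.60, 4.61 and 4.62. Cyp17a1, which makes androgen precursors, averaged 10.45 ± 0.48 (SD, n = 4). Cyp11a1, the side-chain cleavage enzyme, read 7.12, 7.16, 7.48 and 7.71, and Hsd3b1 8.28, 8.10, 7.75 and 8.37. Wild type 4 was the highest array for all 3 enzymes. Akr1cl had the highest percentile of the list (99.3). In the hedgehog pathway, which links granulosa to theca cells, Ptch1 averaged 8.43 ± 0.13 and Gli2 9.71 ± 0.09 (SD, n = 4 each), while Gli1 was above background on 0 arrays.

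Genes often used to mark Sertoli cells passed in 13 of 16 cases (81.2%), with a median percentile of 59.7. Sox9 read 9.37, 9.46, 9.43 and 9.23 and Dhh 8.90, 8.97, 8.68 and 8.68. Aard, Defb19 and Cldn11 stood at percentiles 96.0, 92.7 and 91.7. Dmrt1, which maintains the male somatic fate, was at background on all 4 arrays (4.84, 4.59, 4.50 and 4.75). Of 9 measured Y-linked genes, 8 were above background on 0 arrays, Sry and Kdm5d included. Uty was the 1 exception, at 5.34, 5.02, 5.39 and 5.34, and 0 of the 9 passed when the background level was raised to the 99th percentile. Xist, the RNA of the inactive X chromosome, read 12.05, 11.66, 11.77 and 11.85. Of 13 genes of sperm and spermatids, 2 (15.4%) passed, Ldhc and Odf2.

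Stromal genes gave the highest share of bright members among the cell type lists. Of 28 measured genes, 27 (96.4%) were above background, 16 sat at the 90th percentile or higher, and the median percentile was 92.6. Decorin (Dcn) read 14.26, 14.30, 14.40 and 14.30, the imprinted gene Dlk1 14.18, 14.05, 14.27 and 14.16, and Sparc, a matrix protein, 13.83, 13.92, 14.09 and 13.74. The mesenchymal regulators Tcf21 and Nr2f2 averaged 11.23 ± 0.08 and 9.34 ± 0.22, and the growth factor receptor gene Pdgfra 11.90 ± 0.20 (SD, n = 4 each). Collagen gene Col1a2 was the most variable stromal member at 10.75, 10.06, 10.74 and 9.39, lowest on wild type 4. Maf was above background on 3 arrays. Wild type 3 held the highest value of 15 of 27 stromal genes, against 28.9% of all genes highest on that array.

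Smooth muscle and pericyte genes passed in 13 of 14 cases (92.9%) and basement membrane genes in 15 of 16 (93.8%). The myosin kinase gene Mylk read 13.90, 13.95, 13.88 and 13.85, and Actg2, a visceral smooth muscle actin, 12.25, 12.50, 12.49 and 12.16. Rgs5, a pericyte gene, varied far more, with 7.42 on wild type 1 against 9.25, 10.18 and 9.30 on wild type 2, 3 and 4. Cnn1 of the same list was at background. In the basement membrane, Col4a1 read 12.13, 12.06, 12.46 and 12.13 and agrin (Agrn) 12.07, 12.20, 11.90 and 12.17. Lama4 was its 1 member at background on every array.

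Endothelial genes passed in 17 of 20 cases (85.0%), with a median percentile of 69.3. Egfl7 read 11.01, 11.35, 11.45 and 11.30 and the junction gene Esam 11.06, 11.06, 11.31 and 11.09. The classical markers Cdh5 and Pecam1 averaged 8.36 ± 0.19 and 8.14 ± 0.09 (SD, n = 4 each), and Lyve1, of lymphatic vessels and some macrophages, 8.95 ± 0.22 (SD, n = 4). Of 17 members above background on all 4 arrays, 11 were highest on wild type 3, against the same 28.9%. Kdr, which encodes the main receptor of vascular endothelial growth factor, was at background by both of its probes.

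Genes of surface and ductal epithelium passed in 21 of 25 cases (84.0%), with a median percentile of 69.3. Upk3b, a gene of mesothelial and ovarian surface cells, read 11.21, 11.41, 11.49 and 11.52. Krt7 read 8.30, 8.63, 8.89 and 8.73, and Krt19, counted with the pregranulosa genes, 9.47, 9.72, 9.80 and 9.63. Wild type 1 was the lowest array for all 3, and it held the lowest value of 11 of 21 epithelial genes, against 29.8% of all genes lowest on that array. Cdh1, which encodes E-cadherin, averaged 9.33 ± 0.19 (SD, n = 4), whereas Epcam was at background with 4.49, 4.65, 4.38 and 4.36.

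Signals of genes known from the oviduct, which adjoins the ovary, were uneven. Ovgp1, which encodes the secreted oviduct glycoprotein, had the highest percentile of the epithelial list (99.2) at 13.51, 13.54, 13.01 and 13.03. In the same list Pax8 stood at percentile 64.8 and Pax2 at 24.2, the latter above background on 1 array. Of 24 genes of multiciliated cells, which line oviduct and rete tubules, 20 (83.3%) were above background with a median percentile of 80.4. Dynlrb2, a dynein light chain gene, read 12.70, 13.03, 12.69 and 12.64, Ccno, needed to multiply centrioles, 11.98, 12.10, 12.23 and 11.86, and Rsph1 of the radial spoke 11.91, 12.34, 11.80 and 11.98. Foxj1, the regulator of motile cilia, read 6.46, 6.71, 6.51 and 6.59. Wild type 2 held the highest value of 15 of 20 members, against 20.4% of all genes highest there, with a median difference from the other 3 arrays of 0.43. Dnah9 and Spag6 were above background on 0 arrays. Whether these signals came from ovarian cells or from attached tissue was not tested.

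**Figure D3:**
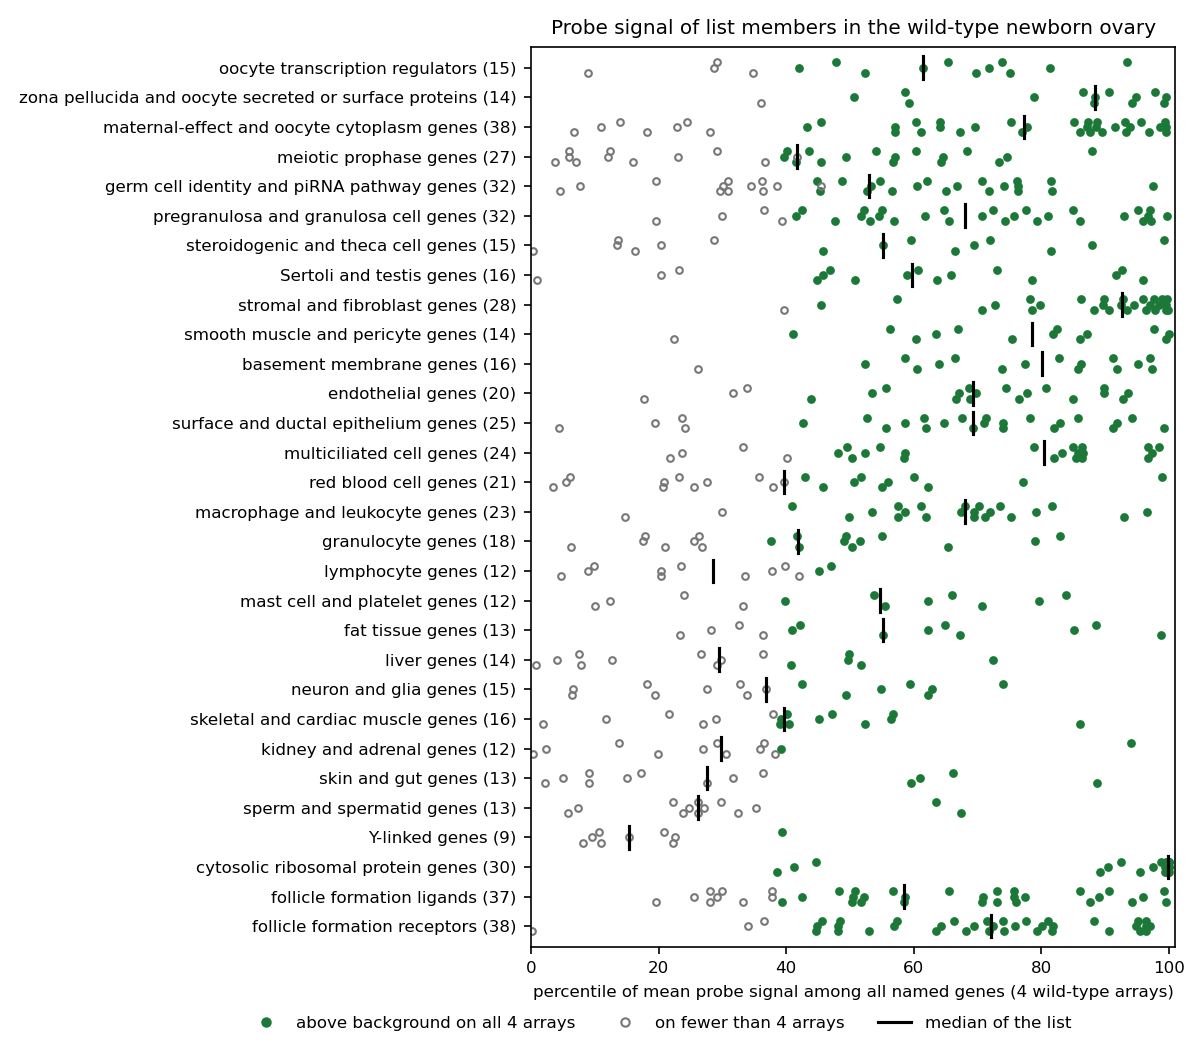
Percentile of mean probe signal among all named genes (horizontal axis) for each measured member of 30 gene lists; filled points are above background on all 4 wild-type arrays, open points on fewer, and the bar is the list's median. Ribosomal protein, stromal and zona genes crowd at the right (medians 99.8, 92.6 and 88.3), while lymphocyte, kidney, skin, sperm and Y-linked genes lie mostly left of percentile 40.

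Blood cell genes divided by lineage. In the red blood cell list 10 of 21 genes (47.6%) passed, below the 60.6% of all named genes, and 6 were at background on every array. Some adult globin genes were bright. Hba-a1 read 12.61, 13.14, 13.06 and 13.39, and the beta globins Hbb-bt and Hbb-bs, named after their values were seen, 12.97, 13.38, 13.29 and 13.56, and 12.70, 13.27, 13.26 and 13.58. In these 3, wild type 1 was the lowest and wild type 4 the highest array. Hbb-b2, the adult beta globin gene of the list, was neither bright nor in that order, at 7.59, 7.23, 7.98 and 6.89, with wild type 4 lowest. The embryonic globin genes Hbb-y and Hba-x were at background with 4.66, 4.94, 4.64 and 4.46, and 4.49, 4.52, 4.58 and 4.37. Hbb-bh1, another embryonic globin gene, was faint but above background on 3 arrays, at 5.15, 4.86, 5.16 and 5.55. The heme synthesis gene Alas2 was lowest on wild type 1 at 6.72, against 7.04, 7.07 and 7.10. Near-identical globin copies share sequence, so these probes may not separate them.

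Macrophage and leukocyte genes passed in 21 of 23 cases (91.3%), with a median percentile of 68. The lysozyme gene Lyz1 read 12.59, 11.91, 11.64 and 11.70 and Laptm5 11.78, 11.09, 10.72 and 11.05. Csf1r, the receptor that macrophages need, read 7.87, 7.29, 7.63 and 7.45, and the complement genes C1qa, C1qb and C1qc averaged 6.71 ± 0.25, 8.62 ± 0.41 and 8.43 ± 0.32 (SD, n = 4 each). Of 21 members above background on all 4 arrays, 17 were highest on wild type 1, against 28.6% of all such genes. Mrc1, a gene of tissue-resident macrophages, was an exception at 8.71, 8.57, 8.78 and 8.73.

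Granulocyte genes passed in 11 of 18 cases (61.1%), close to the 60.6% of all named genes, with Ltf at 9.80, 10.48, 9.55 and 9.62, and the neutrophil genes S100a8 and S100a9 were lowest on wild type 3 (7.15 and 5.21). Lymphocyte genes passed in 2 of 12 cases (16.7%), the receptor component genes Cd79b (5.71, 5.80, 6.40 and 5.98) and Cd3e (6.38, 5.84, 5.40 and 5.44). Mast cell and platelet genes passed in 8 of 12 cases (66.7%). The platelet genes were divided: Pf4 read 9.83, 9.90, 10.13 and 10.10 and Itga2b 6.66, 7.18, 6.85 and 7.04, while Ppbp and Gp1bb were above background on 0 arrays and Gp9 on 1. The mast cell protease genes Cpa3 and Cma1 read 9.16, 9.31, 9.45 and 10.13, and 7.26, 8.01, 8.15 and 8.86. Of 8 members of that list above background on all 4 arrays, 7 were lowest on wild type 1, against 29.8% of all such genes, and 4 highest on wild type 4, against 22.1%.

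Lists of other tissues were mostly near or below the share of all named genes. Liver genes passed in 5 of 14 cases (35.7%), with Alb and Afp at background, and kidney and adrenal genes in 2 of 12 (16.7%), Aqp1 and Pnmt. Skin and gut genes passed in 4 of 13 cases (30.8%), among them Krt10 at 10.53 ± 0.15 (SD, n = 4). Neuron and glia genes passed in 7 of 15 (46.7%) and skeletal and cardiac muscle genes in 10 of 16 (62.5%), with Ckm, Myh1 and Myh4 at background. Fat tissue genes passed in 9 of 13 cases (69.2%): the adipocyte hormone gene Adipoq averaged 10.52 ± 0.43 (SD, n = 4) and Car3 read 10.11, 10.11, 10.63 and 9.57. Both were highest on wild type 3 and lowest on wild type 4. The part of attached fat in these values was not tested.

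Ligands and receptors of follicle formation were read from both sides of the same pathways. Of 37 ligand genes 28 (75.7%) passed, with a median percentile of 58.5, and of 38 receptor genes 35 (92.1%) passed, with a median percentile of 72.1. The share of all named genes was 60.6%. In the KIT pathway, which supports oocyte survival and growth, the receptor gene Kit averaged 10.49 ± 0.06 (SD, n = 4) and the ligand gene Kitl read 5.45, 5.33, 5.88 and 5.35. Kitl was thus above background on all 4 arrays, by 1 of its 3 probes. In the BMP and TGF-beta pathways the receptor genes Bmpr2, Bmpr1a and Tgfbr1 averaged 11.52 ± 0.08, 10.80 ± 0.12 and 11.66 ± 0.17, and the ligand genes Bmp4 and Tgfb2 8.80 ± 0.35 and 9.26 ± 0.19 (SD, n = 4 each).

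The Wnt pathway promotes ovarian fate of the somatic cells. Wnt4 averaged 8.57 ± 0.10 and its enhancer Rspo1 6.52 ± 0.13, while of the R-spondin receptors Lgr5 averaged 7.10 ± 0.08 (SD, n = 4 each) and Lgr4 was at background with 4.41, 4.35, 4.29 and 4.26. In the Notch pathway, used for cyst breakdown, Jag1 averaged 8.01 ± 0.28 (SD, n = 4), and Notch2 was above background on 3 arrays only (4.93, 5.33, 5.14 and 4.98). Igf2, a fetal growth factor gene, had the highest ligand percentile (99.6) at 13.73, 13.76, 14.05 and 14.29. Of the insulin-like growth factor binding proteins, counted after the values were seen, 6 of 7 passed, against 60.6% of all named genes. Igfbp5 read 14.40, 14.42, 14.30 and 14.42. The estrogen receptor genes Esr1 and Esr2 averaged 11.92 ± 0.20 and 9.48 ± 0.28 (SD, n = 4 each).

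Hox genes, which pattern the body axis, were counted after their values had been seen. In all, 22 of 38 measured Hox genes were above background, against 60.6% of all named genes. Of paralogue groups 1 to 10, 21 of 29 passed, and of groups 11 to 13, 1 of 9. That gene was Hoxa11, at 5.03, 5.13, 6.09 and 6.41, where wild type 3 and 4 lay above wild type 1 and 2. Hoxc6 read 11.54, 11.54, 11.40 and 11.40 and Hoxb7 10.54, 10.72, 10.59 and 10.64, with hardly any spread. By chromosome, 61.1% of autosomal genes, 52.8% of X-linked genes and 2 of 19 Y-linked genes passed.

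Replicate spread was small for most genes. Over the 14046 genes above background on at least 1 array the median SD between arrays was 0.178, and 74.4% had an SD under 0.25. An SD over 1 was reached by 50 genes, and by 7 when wild type 1 was left out. With any other single array left out, it was reached by 58 to 67 genes. The 12 genes with the largest SD were Cxcl9, Serpina3f, Fcgr4, H2-Aa, Taf7l, Gm4951, Ccl8, H2-Ab1, Tmem25, H2-Eb1, Plet1 and Ccl5. Of these, 9 were highest on wild type 1.

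Some of these were antigen presentation genes. The MHC class II genes H2-Aa, H2-Ab1 and H2-Eb1, which present peptides on antigen-presenting cells, read 11.65, 8.48, 7.83 and 7.46, 11.53, 8.78, 8.04 and 7.72, and 10.35, 7.55, 7.10 and 6.90. The invariant chain gene Cd74 followed with 11.64, 9.12, 8.84 and 8.19. For each of these 4 genes wild type 1 lay apart from the other arrays, among which wild type 2 was the highest and wild type 4 the lowest. Ciita, the master regulator of class II genes, was 7.45 on wild type 1 and at background on the other arrays (4.78, 4.61 and 4.65).

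Many interferon-regulated genes were also highest on wild type 1, though not all. Oasl1 did not separate the arrays (6.12, 6.15, 6.01 and 6.02), and Ifit1 and Mx1 were above background on 0 arrays. The chemokine gene Cxcl9 read 9.82, 6.16, 4.83 and 4.79, and Ccl5 7.83, 4.71, 4.88 and 4.65. The interferon-inducible GTPase genes Gbp2, Igtp and Irgm2 read 12.04, 10.08, 9.94 and 9.71, 10.43, 7.95, 7.58 and 7.33, and 10.76, 8.70, 8.42 and 8.34. Only Cxcl9 on wild type 2 came above background outside wild type 1 for the pair of chemokines, while the GTPase genes were above background on all 4 arrays. Ifng itself, the gene for interferon gamma, was above background only on wild type 1 (5.51, against 4.68, 4.62 and 4.81), and its receptor gene Ifngr1 did not separate the arrays (8.49, 8.41, 8.54 and 8.44).

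**Figure D4:**
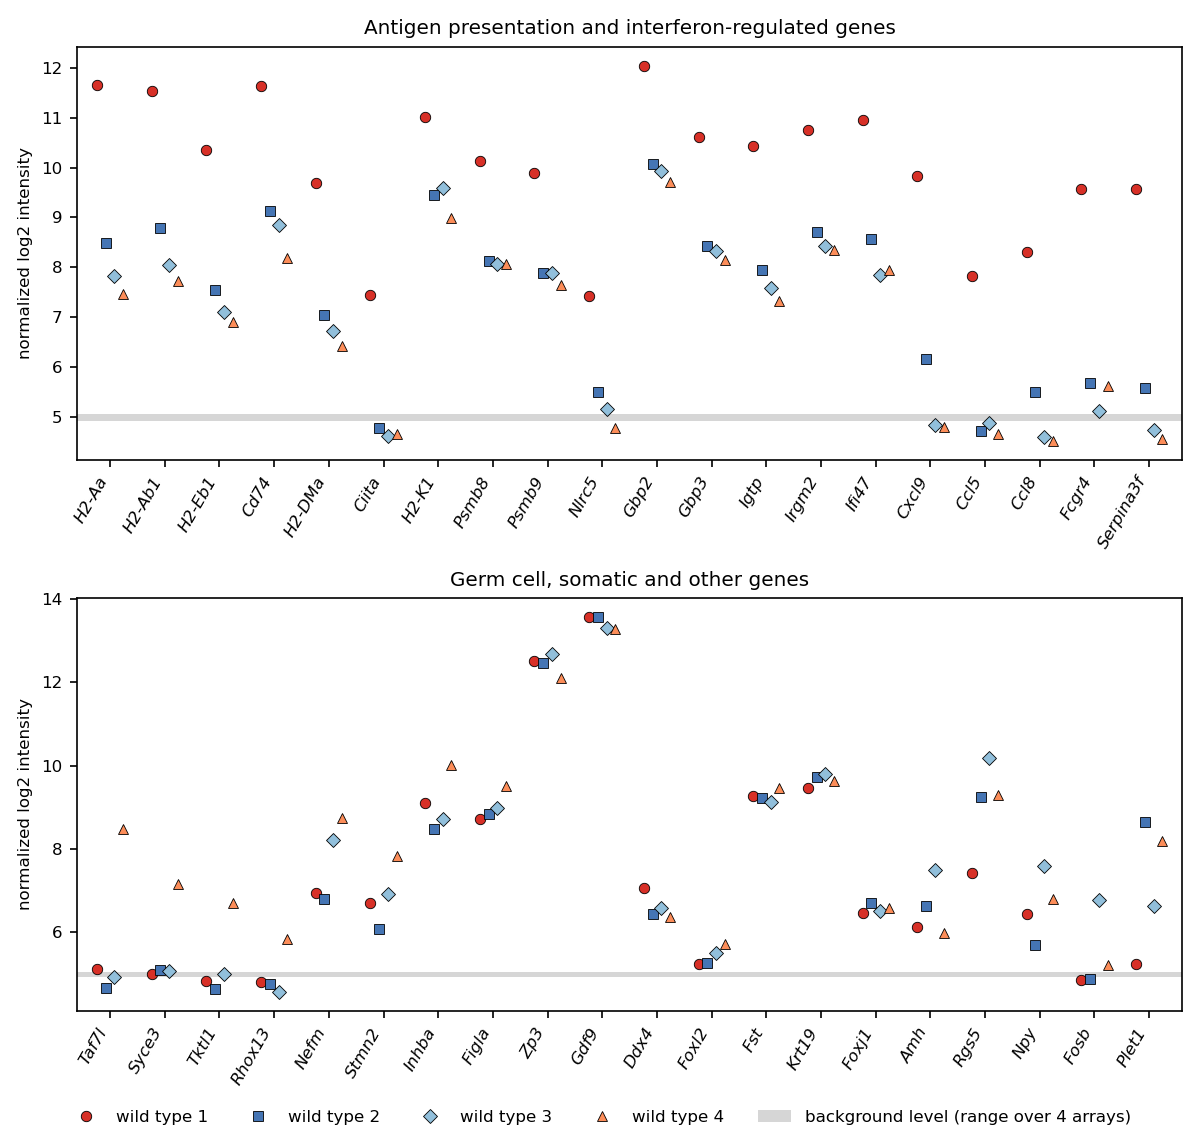
Normalized log2 intensity of 20 antigen presentation and interferon-regulated genes (top) and 20 germ cell, somatic and other genes (bottom) on each wild-type array, with the background level as a grey band. The 20 genes of the top panel all belong to those at least 2-fold higher on wild type 1 (red circles). That array therefore lies highest for each by choice, for example at 11.65 against 7.46 to 8.48 for H2-Aa. In the bottom panel wild type 4 (orange triangles) lies highest for Taf7l, Syce3, Tktl1 and Rhox13, which belong to the genes at least 2-fold higher there. Rhox13 was above background on wild type 4 alone, and was 1.85-fold higher when set against the background level.

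Immune genes were put into 8 lists after these values were seen, so their counts describe the pattern and do not test it. Among members above background on all 4 arrays, wild type 1 held the highest value of 9 of 9 interferon-inducible GTPases, 9 of 9 MHC class II presentation genes, 9 of 11 genes of class I presentation and the immunoproteasome and 7 of 8 type I interferon targets. Of all such genes, 28.6% were highest on wild type 1. The count was lower for the interferon gamma pathway (3 of 6) and acute phase and neutrophil genes (3 of 5). Of the chemokines 1 and of the T and NK cell genes 2 passed on all 4 arrays, too few for a count. The T cell genes Cd3d (6.37, 4.86, 4.65 and 4.88) and Nkg7, also of NK cells (6.76, 5.12, 4.71 and 4.60), stood highest on wild type 1, but Prf1 did not separate the arrays (8.03, 8.05, 8.09 and 7.96). Cd3d was above background on wild type 1 alone and Nkg7 on wild type 1 and 2, so both were counted through the array where they were high. Of 9 T and NK cell genes above background on at least 1 array, 6 were highest on wild type 1. Of the others, Cd247 and Il2rb were highest on wild type 2 and Prf1 on wild type 3. Klrk1 and Gzmb of that list were above background on 0 arrays. In the original lists, 17 of 21 macrophage genes were highest and 7 of 8 mast cell and platelet genes lowest on wild type 1. Cd74, H2-Aa and H2-Ab1 belong to that macrophage list and are counted again among the MHC class II genes. Of the lymphocyte list, Cd8a, Ms4a1 and Pax5 were above background on 0 arrays. The part of these cell types in the pattern was not tested.

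Promoters of these genes were searched for 2 motifs known from interferon signalling, in the same RefSeq windows. GAS was searched as TTCNNNGAA, which reads the same on both strands, and an ISRE-like motif as GAAA, any 2 bases and GAAA, on both strands. The windows of 3 genes are shown because their genes separate wild type 1 from the other arrays, with capitals for every match to these motifs. They are Gbp2, chr3:142620413-142620712 (+ strand), Igtp, chr11:58199306-58199605 (+ strand), and Irgm2, chr11:58214727-58215026 (+ strand), all on GRCm38.p6.
Gbp2: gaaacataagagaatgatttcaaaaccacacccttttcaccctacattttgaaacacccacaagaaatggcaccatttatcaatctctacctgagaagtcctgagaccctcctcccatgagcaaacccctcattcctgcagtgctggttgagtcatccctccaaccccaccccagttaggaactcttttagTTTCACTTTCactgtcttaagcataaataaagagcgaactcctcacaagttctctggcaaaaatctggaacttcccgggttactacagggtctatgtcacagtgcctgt
Igtp: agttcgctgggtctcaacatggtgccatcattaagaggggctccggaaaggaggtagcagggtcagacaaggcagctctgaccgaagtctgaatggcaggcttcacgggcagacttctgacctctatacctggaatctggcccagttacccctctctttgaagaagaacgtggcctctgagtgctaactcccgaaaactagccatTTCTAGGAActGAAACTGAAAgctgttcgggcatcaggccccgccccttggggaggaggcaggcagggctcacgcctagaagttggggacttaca
Irgm2: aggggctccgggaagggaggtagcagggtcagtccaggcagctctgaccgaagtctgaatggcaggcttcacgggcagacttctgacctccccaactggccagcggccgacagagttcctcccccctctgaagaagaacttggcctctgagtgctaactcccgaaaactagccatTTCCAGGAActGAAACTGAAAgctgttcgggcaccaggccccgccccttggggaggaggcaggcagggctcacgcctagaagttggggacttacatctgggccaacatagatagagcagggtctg
Igtp and Irgm2 each hold a GAS match and, after 2 further bases, an ISRE-like match, GAAACTGAAA, within 75 bases of the start site. The shown matches do not overlap. Over all 27025 genes, 3.49% of windows hold the ISRE-like motif and 8.47% the GAS motif. Of the 110 genes at least 2-fold higher on wild type 1, 79 have a window in the table, and 25 (31.65%) of those hold the ISRE-like motif and 15 (18.99%) GAS. Among the genes lower on wild type 1 the counts were 0 of 17 and 1 of 17, and among those higher on wild type 4 they were 0 of 16 for both motifs. These smaller sets hold too few windows to show a share below that of all genes. The shares of all these sets describe genes chosen by their values, and some of the 110 were above background on wild type 1 alone.

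Of the genes low on wild type 1, Plet1 read 5.24, 8.64, 6.63 and 8.19, Tmem25 4.59, 7.51, 5.18 and 7.87, and Taf6, which encodes a subunit of the general transcription factor TFIID, 6.02, 8.63, 8.05 and 8.56. For Plet1 and Tmem25 wild type 3 lay between wild type 1 and the pair of wild type 2 and 4, whereas for Taf6 wild type 1 alone was low. Of the 26 genes lower on wild type 1, 8 (30.8%) lie on chromosome 9, where 5.77% of the genes above background lie. Of the 110 higher genes 27 (24.5%) lie on chromosome 17, which carries the MHC and 4.85% of the genes above background. These counts were made after the values were seen, and some of the 110 higher genes were above background on wild type 1 alone.

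Without background correction, 4 genes were at least 2-fold higher on wild type 4, in place of 24. Among the 24 were germ cell genes. Taf7l, an X-linked TFIID subunit gene of germ cells, read 5.11, 4.66, 4.93 and 8.48. Syce3, of the synaptonemal complex, read 5.01, 5.10, 5.06 and 7.17, Tktl1, an X-linked transketolase gene, 4.82, 4.64, 5.0 and 6.70, and the X-linked homeobox gene Rhox13 4.81, 4.77, 4.57 and 5.85. The other arrays were within 0.5 of the background level for all 4 genes. Rhox13 was above background on wild type 4 alone and, set against the background level, was 1.85-fold higher there. Of the germ cell identity genes above background on all 4 arrays, 10 of 20 were highest on wild type 4, against 22.1% of all such genes, with a median difference from the other 3 arrays of 0.06. Of the meiotic genes 6 of 16 were highest on wild type 4, and 6 of 16 on wild type 1. The neuronal genes Nefm (6.95, 6.81, 8.22 and 8.74) and Stmn2 (6.70, 6.07, 6.91 and 7.82) were also highest on wild type 4, while Prph (6.48, 6.56, 6.38 and 5.44) and Syt1 (9.05, 9.11, 8.84 and 8.62) of the same list were lowest there.

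The titles of wild type 2 and 3 carry a letter b that the labels do not explain, so these arrays were tested against wild type 1 and 4. With limma and Benjamini-Hochberg adjustment, 0 of 12892 genes (0%) passed an adjusted p under 0.05, and 526 (4.08%) had an unadjusted p under 0.05. No other tool was run. With so few arrays on each side, 0 calls do not show that the groups were alike. The smallest unadjusted p belonged to Lrrc57, at 6.55 and 6.83 on wild type 2 and 3 against 8.04 and 8.09 on wild type 1 and 4 (log2 difference -1.37, SE 0.17, limma adjusted p = 1). Without wild type 1, 3 genes passed, all lower on wild type 2 and 3, and without wild type 4, 85 passed, 77 lower and 8 higher. In each of those fits a single array stood for the other side and was assumed to vary like the pair.

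Probes of the same gene often disagreed. Of 9172 genes with several probes, 2538 (27.7%) had every probe above background on all 4 arrays, and 3175 (34.6%) had at least 1 such probe beside another above background on 0 arrays. The largest gaps between the 2 probes of a gene were 10.22 for Tmsb4x, 10.05 for Rplp2, 9.93 for Tubb5, 9.76 for Npm1 and 9.01 for Ctsb. The brighter Tmsb4x probe read 14.62, 14.57, 14.61 and 14.52 and the other 4.31, 4.47, 4.34 and 4.30. A gene read by 1 probe and found at background, as Star, Stra8 or Epcam were, has no second probe to set against it.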

How the data were processed

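Total RNA of 4 wild-type newborn ovary samples was hybridized to Illumina MouseWG-6 v2 arrays, which were read with BeadStudio 3.2, per the submitters' processing notes. The deposited table held linear intensity values for 45281 probes on 11 arrays, without detection p values or control probes. They ran between 98.39 and 33822 with no background subtraction, and had been quantile normalized before deposit, because sorted values of any 2 arrays lay within 11.16 units. The deposited series matrix gave log2 of these values (largest gap 0.005). Which step made these values is not given in the sources used here.

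Background was corrected with the normexp model of limma 3.58.1 (R 4.3.3, offset 16, 1276 olfactory receptor probes as negative controls), followed by quantile normalization over 11 arrays and log2. Of all probes, 34885 had 1 gene symbol, 18 several and 10378 none. Entrez identifiers of 34807 probes matched a RefSeq table (GRCm38.p6), which changed 0 symbols. Precision is limited by the number of arrays. The single test, of wild type 2 and 3 against wild type 1 and 4, used lmFit and eBayes on genes above background on at least 2 arrays and was checked on simulated data. Members and lists were chosen with earlier results of these data known. The rule for named genes took Sohlh1 and Sohlh2, the 25 brightest genes, up to 5 brightest members and up to 3 undetected members of each list, the 12 genes with the largest SD, up to 6 genes per direction of the test and the 5 largest probe disagreements, and allowed other list members where their role called for it. Hox, globin, other family and immune genes were chosen after their values were seen. Counts of members highest or lowest on an array were also added after seeing the data. Alternatives were other background levels and negative controls, other detection rules, no background correction, the series matrix, median scaling, cyclic loess, other probe rules, and leaving out arrays.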

Additional observations from a re-analysis of the deposited data

Results flagged for a closer look

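Among 253 named genes, 18 (7.11%) had 1 array whose gap to the nearest of the others exceeded 0.829 of the range of the 4 arrays. Chance gives about 1 in 20, but 12 of these genes were named for their large SD between arrays, so the share is not a fair test. Without those 12 it was 15 of 241 genes (6.22%). Over all 18 genes, wild type 1 was the array set apart in 8, 5 times highest and 3 times lowest. The largest ranges belonged to Fcgr4 (gap 0.872 of a range of 4.44, highest on wild type 1), Taf7l (0.883 of 3.82, highest on wild type 4) and Ccl5 (0.928 of 3.17, highest on wild type 1).

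The other ranges were at most 0.64 on the log2 scale. Highest on wild type 1 were Gtsf1 (0.917), Ckm (0.835) and Ctsb (0.83), and lowest there were Rpl41 (0.897), Bmp2 (0.861) and Alas2 (0.843). Wild type 2 was highest for Dynlrb2 (0.853), Cidea (0.886) and Mb (0.866) and lowest for Uty (0.862). Wild type 3 was highest for Col4a1 (0.833) and Esam (0.853) and lowest for Rpl38 (0.878). Wild type 4 was highest for Prm1 (0.913) and lowest for Oas1d (0.903). Bmp2 and Ckm were above background on 0 arrays, so their values have no order.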

How the results depend on the processing

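The count of genes above background was 10737 to 14080 over the other background levels, control probes and detection rules, 11659 to 11844 with 1 array left out, and 11928 without wild type 2 and 3. Of the 25 brightest genes, 17 to 25 were kept under every alternative run, the 17 with the mean of all probes of a gene. The number of genes with an SD over 1 was 50, but 14 without background correction, 30 over genes above background on all 4 arrays, and 7 to 67 with 1 array left out, lowest without wild type 1. The test of wild type 2 and 3 against wild type 1 and 4 called 0 genes in all settings but those that leave out 1 array (0 to 85). Of the list counts, 317 of 330 alternative values stayed within 1.5 times the reported count, and the 13 that did not fell on 9 of 30 lists. Of the list medians, 240 of 270 moved by less than their spread between arrays, and the 30 that moved further fell on 24 of 30 lists. Gene means were rerun only with median scaling and with arrays left out. Leaving out arrays in this way cannot shift a mean by as much as its SD. The 1515 of 1518 gene means that stayed within their SD were therefore largely fixed in advance. Without background correction, a change chosen after seeing the data, 39 genes were higher and 9 lower on wild type 1. Signal over background limits what can be seen of faint genes, and undetected genes may still be expressed. No paired analysis was possible because the report compares wild-type arrays only with each other.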
